A study of Mus musculus with 35 samples.

Results

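Sgk1, Fkbp5, Tsc22d3, Zbtb16, Mt1, Mt2, Klf9, Nr3c1, Hsd11b1 and Ddit4 are the glucocorticoid receptor, the enzyme that supplies it with hormone, and genes known to respond to it. These 10 genes were chosen by name, with earlier results of these data known. They were read as rows of the count table and followed in all 35 mice among the 55421 genes measured. Interscapular brown adipose tissue (iBAT), the fat depot that burns fuel for heat, was taken from male C57BL/6J mice of 9 to 10 weeks. All had chow freely and a light-dark cycle with equal light and dark phases. 5 mice stayed under colony conditions at 24 °C (room temperature controls), and 5 each were kept at 6 °C for 6 hours or for 1, 2, 3, 4 or 5 days. Mice in the cold were housed 1 per static cage without nesting material. Housing therefore changed together with temperature, and the effects of the 2 on these genes cannot be told apart. Hour of tissue collection is not given in the labels. Effects of hour and of time in the cold on these genes therefore cannot be told apart.

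Glucocorticoids leave the adrenal gland under stress and in a daily rhythm. Inside the cell the enzyme encoded by Hsd11b1 regenerates active hormone from its inert form, and the receptor encoded by Nr3c1, held ready by heat shock protein chaperones, binds the hormone, enters the nucleus and attaches to palindromic DNA elements near its target genes. Fkbp5 is a target that feeds back, since its product joins the receptor complex and lowers its affinity for hormone. In adipose tissue glucocorticoids are known for acting on adipocyte differentiation, lipid storage and insulin action, and in brown fat for restraining thermogenic genes. Several of the 10 genes also respond to other signals, among them cAMP, insulin, metal ions and the circadian clock. Hormone levels were not among the values analysed here.

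Between 3846016 and 6047247 reads were counted on genes per library, 33.6% to 46.2% of them mitochondrial. Values are given as CPM, the reads of a gene relative to all reads of its library, scaled by TMM factors, and a single read was worth 0.151 to 0.289 CPM. The libraries are made from the 3' end of each transcript, so a count does not grow with transcript length. All 10 brown adipose markers examined, Ucp1 among them, were present in every group (summed level 14012 to 17803 CPM in controls), while 3 of 6 lymphocyte markers averaged under 1 read per library. Cell numbers were not measured, and in whole tissue fewer cells of a type and less RNA per cell cannot be told apart. Below, a gene is said to have risen or fallen where edgeR's quasi-likelihood test gave a Benjamini-Hochberg adjusted p below 0.05 over all genes tested. All 10 genes passed the filter on low counts in all 8 comparisons.

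Sgk1, a kinase that controls ion transport and cell survival, was the 1 gene of the 10 called higher than in controls at each of the 6 durations. Hsd11b1 was lower from 6 hours to 4 days. After 6 hours, 5 of the 10 genes had risen (Sgk1, Fkbp5, Tsc22d3, Klf9 and Ddit4) and 1 had fallen (Hsd11b1), while 42.5% of all 10593 genes tested passed the test, 21.5% higher and 21% lower. Median log2 fold change of the 10 was 0.36 at that time, beside -0.027 over all genes. After 1 day 3 had risen (Sgk1, Mt1 and Mt2) and 2 had fallen (Tsc22d3 and Hsd11b1), against a background of 36.7% (18.9% higher, 17.8% lower), and the median was 0.20 beside -0.018. At 2, 3 and 4 days only Sgk1 was called higher and only Hsd11b1 lower. Beside those 2 of 10, the share of all genes was 31.2% at 2 days (16.4% higher, 14.7% lower). It was 33.8% at 3 days (18.3% and 15.5%) and 38% at 4 days (19.4% and 18.6%). The count of the 10 reached up to 4 at 2 days and at 4 days when 1 mouse was left out. Medians of the 10 were 0.24, -0.0042 and -0.19 at these times, beside -0.017, -0.0073 and -0.021. After 5 days 3 were higher (Sgk1, Mt1 and Mt2) and 3 lower (Tsc22d3, Zbtb16 and Ddit4), with a background of 38.8% (20.2% higher, 18.6% lower) and a median of -0.38 beside -0.017. All 6 comparisons share the same 5 controls. Scaled by library size alone, the split over all genes at 6 hours became 1342 higher and 3399 lower in place of 2280 and 2225, the median over all genes moved to -0.21, and the 10 genes had 1 higher and 3 lower at 2 days and 1 higher and 4 lower at 4 days.

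**Figure D1:**
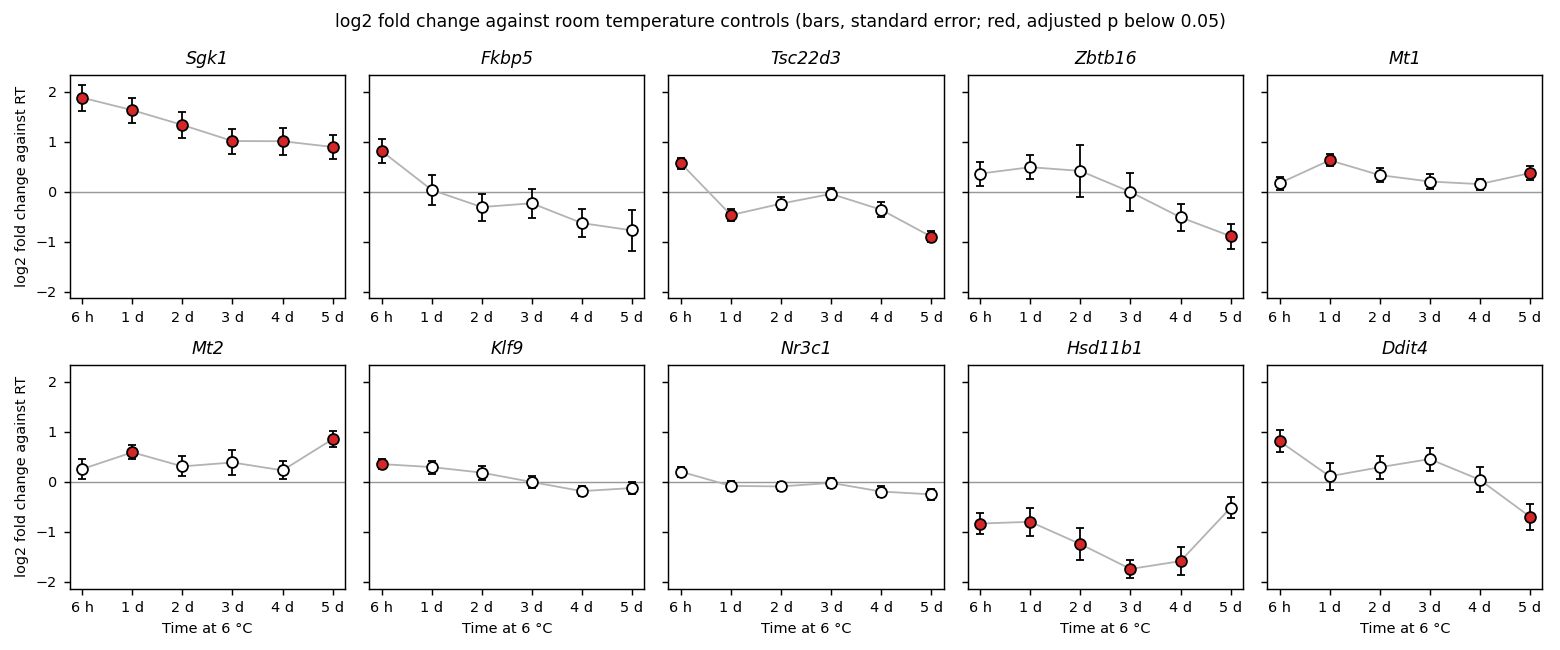
log2 fold change of each gene against the 5 room temperature mice (vertical axis) at each duration at 6 °C (horizontal axis); bars are standard errors and red points passed an adjusted p below 0.05. Sgk1 stayed above 0 throughout, from 1.88 at 6 hours to 0.89 at 5 days, Hsd11b1 reached -1.74 at 3 days, and Tsc22d3 went from 0.57 to -0.90.

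Hsd11b1, which lies at chr1:193221634-193264075 on the minus strand (GRCm38, as are all positions here), was lower than in controls from 6 hours to 4 days. Its level in the controls was 31.0, 37.0, 45.4, 49.5 and 68.5 CPM. After 6 hours it was 16.7, 19.97, 26.9, 31.2 and 36.4 CPM, and 3 of 5 mice were below every control. After 3 days it was 11.5, 12.2, 14.1, 15.0 and 16.0 CPM. All 5 mice then lay below every control and close to each other, and all 5 did so again after 4 days (7.25 to 24.2 CPM). Means were 46.3 ± 14.4 CPM in controls and 13.8 ± 1.87 CPM at 3 days (SD, n = 5), a log2 fold change of -1.74 ± 0.19 (SE, adjusted p = 3.6e-06). Other durations gave -0.83 ± 0.21 (SE, adjusted p = 0.00385) at 6 hours, -1.24 ± 0.32 (SE, adjusted p = 0.00767) at 2 days and -1.59 ± 0.28 (SE, adjusted p = 3.5e-04) at 4 days. At 2 days the mice spread from 10.1 to 40.5 CPM, with 1 of 5 inside the control range. The call at 1 day, -0.80 ± 0.28 (SE, adjusted p = 0.0329), was lost with DESeq2 (adjusted p = 0.0825) and when room temperature mouse 3, 4 or 5 or 1 day mouse 1, 4 or 5 was left out (adjusted p from 0.0558 to 0.0973, log2 fold change -0.81 to -0.59). At 5 days the level was 21.8, 26.7, 27.4, 41.7 and 43.7 CPM, with 3 mice still below every control, and the difference of -0.52 ± 0.21 (SE, adjusted p = 0.0556) did not pass. It passed with DESeq2 (adjusted p = 0.0486) and when room temperature mouse 1 or 2 or 5 days mouse 4 or 5 was left out (adjusted p from 0.0189 to 0.0394, log2 fold change -0.65 to -0.59).

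Transcripts of the receptor, Nr3c1 (chromosome 18, minus strand), did not pass the test at any duration. Controls ranged from 75.6 to 94.5 CPM and 6-hour mice from 87.3 to 118 CPM, with 4 of 5 above every control. Values against controls ran from 0.20 ± 0.10 (SE, adjusted p = 0.114) at 6 hours to -0.25 ± 0.10 (SE, adjusted p = 0.067) at 5 days. Single mice decided some of these: the gene passed at 6 hours without 6 hours mouse 5 (0.26, adjusted p = 0.0481), at 4 days without 4 days mouse 3 (-0.28, adjusted p = 0.0342) and at 5 days without room temperature mouse 2 or 5 days mouse 2 (-0.30 to -0.29, adjusted p from 0.0437 to 0.0491). At 1 day the 5 mice lay between 78.2 and 84.5 CPM, all within the control range.

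Fkbp5 (chr17:28399094-28517527, minus strand), which encodes the inhibitory co-chaperone of the receptor, rose at 6 hours, and no other duration passed the test. Controls measured 3.49, 6.00, 7.26, 9.38 and 10.5 CPM. Mice at 6 hours measured 9.45, 11.1, 12.3, 13.9 and 18.3 CPM. 4 of the 5 exceeded every control and the groups overlapped by the remaining mouse, with a log2 fold change of 0.81 ± 0.24 (SE, adjusted p = 0.0123). From 2 days on the means were below that of controls, down to 4.28 ± 2.81 CPM at 5 days against 7.33 ± 2.78 CPM (SD, n = 5). These differences did not pass: -0.63 ± 0.27 (SE, adjusted p = 0.0809) at 4 days and -0.77 ± 0.41 (SE, adjusted p = 0.141) at 5 days. Without room temperature mouse 1 the 4-day value was -0.81 and passed (adjusted p = 0.0157). The gene was low in reads, between 3 and 79 per library, and the lowest value, 0.591 CPM in a 5-day mouse, rests on those 3 reads.

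Tsc22d3 (chrX:140539528-140600659, minus strand) encodes GILZ, a leucine zipper protein through which glucocorticoids dampen inflammation. Its call turned from higher to lower within the time course. Controls were tight, at 29.0, 30.6, 31.2, 33.2 and 35.7 CPM. After 6 hours the gene stood at 42.7, 43.0, 44.8, 53.8 and 56.2 CPM, after 1 day at 19.0, 21.3, 24.1, 25.2 and 25.8 CPM and after 5 days at 15.5, 17.4, 17.4, 17.6 and 17.9 CPM. All 5 mice were above every control at 6 hours, and all 5 were below every control at 1 day and again at 5 days. Log2 fold changes were 0.57 ± 0.11 (SE, adjusted p = 6.3e-04) at 6 hours, -0.47 ± 0.12 (SE, adjusted p = 0.00509) at 1 day and -0.90 ± 0.12 (SE, adjusted p = 8.3e-06) at 5 days. In between, -0.24 ± 0.12 (SE, adjusted p = 0.155) at 2 days, -0.044 ± 0.13 (SE, adjusted p = 0.82) at 3 days and -0.36 ± 0.15 (SE, adjusted p = 0.0698) at 4 days did not pass. The 4-day value passed when 4 days mouse 3 was left out (-0.48, adjusted p = 0.0167). Mice at 5 days were nearly alike, with a coefficient of variation of 5.54%.

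Sgk1 (chr10:21882184-21999903, plus strand) encodes serum- and glucocorticoid-regulated kinase 1, a relative of AKT whose known substrates include the ubiquitin ligase Nedd4l and FOXO factors. Controls read 11.8, 22.3, 28.2, 35.6 and 48.2 CPM. At 6 hours the gene was at 74.6, 84.9, 105, 139.7 and 141 CPM, and at 1 day at 68.0, 87.3, 88.3, 91.4 and 117 CPM. All mice at 6 hours, 1 day and 2 days (59.5 to 86.5 CPM) exceeded every control. At 3, 4 and 5 days 4, 3 and 4 of 5 did so, since the highest control was at 48.2 CPM. Means were 29.2 ± 13.7 CPM in controls, 109 ± 30.5 at 6 hours, 90.4 ± 17.5 at 1 day, 74.0 ± 11.6 at 2 days, 58.6 ± 11.1 at 3 days, 59.0 ± 17.4 at 4 days and 54.5 ± 8.72 at 5 days (SD, n = 5). Ordered by mean, from controls over 5, 3, 4 and 2 days and 1 day to 6 hours, each group's range overlapped that of its neighbours. Against controls the log2 fold change was 1.88 ± 0.26 (SE, adjusted p = 1.7e-05) at 6 hours, 1.63 ± 0.25 (SE, adjusted p = 9.2e-05) at 1 day and 1.33 ± 0.25 (SE, adjusted p = 8.5e-04) at 2 days. It was 1.01 ± 0.25 (SE, adjusted p = 0.00506) at 3 days, 1.01 ± 0.27 (SE, adjusted p = 0.00754) at 4 days and 0.89 ± 0.24 (SE, adjusted p = 0.00597) at 5 days. None of these 6 calls was lost in any alternative run, where the highest adjusted p was 0.0267.

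**Figure D2:**
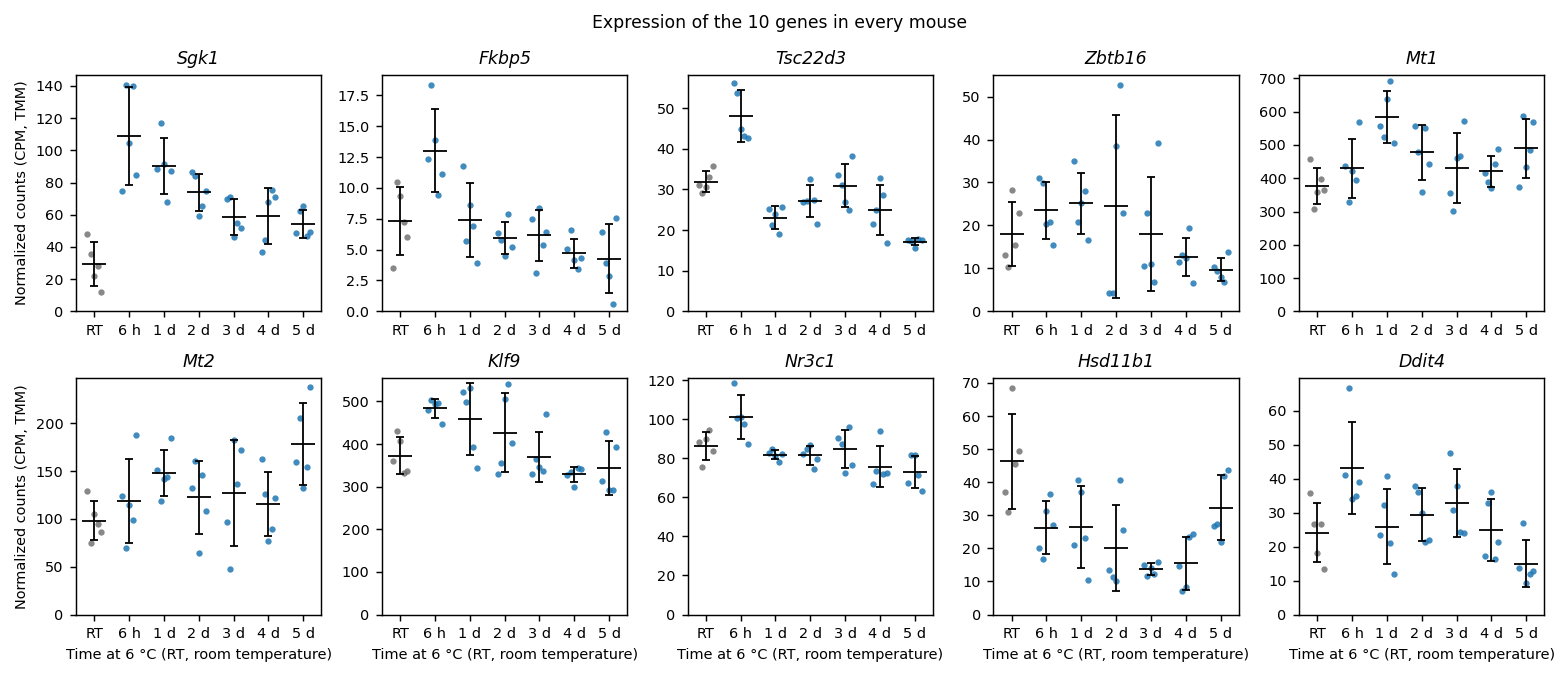
Level of each of the 10 genes in CPM scaled by TMM (vertical axes, from 0) in every mouse (points) by time at 6 °C, with the mean and SD of the 5 mice per group (bars); controls are grey. Sgk1 lay between 74.6 and 141 CPM at 6 hours with no overlap with controls, Hsd11b1 at 3 days sat between 11.5 and 16.0 CPM, and Zbtb16 spread from 4.19 to 52.6 CPM among the 2-day mice.

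Stretches before a transcript start are shown for Sgk1, for its receptor element, and for both metallothionein genes, known targets of metal as well as hormone. RefSeq (GRCm38.p6) lists 6 starts for Sgk1, and the reads, which come from the 3' end, do not show which start was used. The 250 bases before the start at position 21993890 hold the full palindrome of a glucocorticoid response element (AGAACA, any 3 bases, TGTTCT), in capitals. It covers chr10:21993701-21993715, 189 bases before that start and 965 bases before the next. Windows of 250 bases before the start were searched on both strands for 8 of the 10 genes, 15 windows in all. Zbtb16 and Nr3c1 are named only. No other window of these genes held this palindrome, which occurs in 3 of 32851 such windows over all genes (0.00913%), the others being those of Acnat2 and Gm35041. A match describes letters only, and its absence in a window says nothing about the receptor.
Sgk1, chr10:21993640-21993889, plus strand: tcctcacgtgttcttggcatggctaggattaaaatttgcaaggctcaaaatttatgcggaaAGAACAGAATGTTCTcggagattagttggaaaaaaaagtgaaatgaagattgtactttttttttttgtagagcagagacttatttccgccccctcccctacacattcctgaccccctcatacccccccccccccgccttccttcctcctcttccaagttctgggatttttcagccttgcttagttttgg

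Ddit4, Klf9 and Zbtb16 are further known targets. Ddit4 (chr10:59949669-59951834, minus strand) encodes REDD1, an inhibitor of the growth kinase complex mTORC1. In controls it was at 13.5, 18.1, 26.7, 26.7 and 35.6 CPM. At 6 hours it reached 33.9, 34.7, 39.01, 41.0 and 66.7 CPM, and at 5 days it was at 9.39, 11.8, 12.8, 13.8 and 27.0 CPM. 3 of 5 mice at 6 hours were above every control, and 3 of 5 at 5 days were below every control. Its log2 fold change was 0.81 ± 0.22 (SE, adjusted p = 0.00675) at 6 hours and -0.70 ± 0.26 (SE, adjusted p = 0.0428) at 5 days. The 5-day call was lost when room temperature mouse 1, 2 or 4 or 5 days mouse 1, 3, 4 or 5 was left out (adjusted p from 0.0732 to 0.13, log2 fold change -0.66 to -0.52) and with all 7 groups in a single fit (adjusted p = 0.0628). Between these times the values were 0.11 (adjusted p = 0.783) at 1 day, 0.29 (adjusted p = 0.354) at 2 days, 0.46 (adjusted p = 0.14) at 3 days and 0.042 (adjusted p = 0.912) at 4 days. At 3 days the difference passed without room temperature mouse 1 (0.64, adjusted p = 0.0425).

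Klf9 (chr19:23141226-23168134, plus strand), a Krüppel-like transcription factor, was higher at 6 hours in a narrow band. Controls stood at 331, 336, 361, 408 and 429.9 CPM. Mice at 6 hours stood at 447, 479.7, 493, 496 and 503 CPM. All 5 exceeded every control, for a log2 fold change of 0.36 ± 0.093 (SE, adjusted p = 0.00521), which was 0.17 and no longer called when libraries were scaled by size alone (adjusted p = 0.162). At 1 day 3 of 5 mice were above every control (0.30 ± 0.13 SE, adjusted p = 0.0874). That difference passed without 1 day mouse 4 or 5 (0.35 to 0.39, adjusted p from 0.0187 to 0.0491). No later duration passed, with 0.18 (adjusted p = 0.349) at 2 days, -0.19 (adjusted p = 0.135) at 4 days and -0.12 (adjusted p = 0.458) at 5 days.

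Zbtb16 (chr9:48654297-48836222, minus strand) encodes the zinc finger repressor PLZF. Its levels spread widely between mice at 2 and 3 days. In controls it was at 10.3, 13.2, 15.3, 22.9 and 28.2 CPM and after 2 days at 4.19, 4.24, 22.8, 38.6 and 52.6 CPM. At 2 days 2 mice were below every control and 2 were above every control, a coefficient of variation of 87.0% against 40.9% in controls, and at 3 days it was 73.3%. After 5 days the level was 6.89, 8.08, 9.36, 10.3 and 13.8 CPM, with 3 of 5 mice below every control and a log2 fold change of -0.89 ± 0.25 (SE, adjusted p = 0.0091). This call was lost with all 7 groups in a single fit (adjusted p = 0.132). No earlier duration passed, with 0.36 (adjusted p = 0.238) at 6 hours, 0.49 (adjusted p = 0.13) at 1 day and -0.51 (adjusted p = 0.147) at 4 days. Without room temperature mouse 3 the 1-day value was 0.70 and passed (adjusted p = 0.0297).

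Mt1 and Mt2 encode metallothioneins, small proteins that bind zinc and copper. Their genes sit side by side at chr8:94179082-94180327 (Mt1) and chr8:94172664-94173568 (Mt2), both on the plus strand. Bases before a RefSeq start are shown for their metal response elements (TGCACNC or TGCGCNC on either strand, in capitals). Mt1 holds 1 in the bases shown and Mt2 holds 3. Bases after these starts were not searched, so the counts do not compare the whole promoters of the genes. At least 1 such match occurs in 21.4% of all 32851 windows and 3 or more in 1.26%. Mt1 also holds a shorter form of the receptor palindrome (GNACA, any 3 bases, TGTNC, in capitals, chr8:94178995-94179007), which 0.387% of windows hold. Of the 8 genes searched, Sgk1 also has that shorter form, inside its full palindrome, and the other 6 have none in these windows. Ddit4 and Hsd11b1 hold 1 metal element each in theirs, not shown.
Mt1, chr8:94178839-94179081, plus strand: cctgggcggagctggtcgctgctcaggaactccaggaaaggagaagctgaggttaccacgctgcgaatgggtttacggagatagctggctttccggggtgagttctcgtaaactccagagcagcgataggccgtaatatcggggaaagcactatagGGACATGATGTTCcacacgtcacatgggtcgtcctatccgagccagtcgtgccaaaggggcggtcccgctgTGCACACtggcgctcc
Mt2, chr8:94172368-94172617, plus strand: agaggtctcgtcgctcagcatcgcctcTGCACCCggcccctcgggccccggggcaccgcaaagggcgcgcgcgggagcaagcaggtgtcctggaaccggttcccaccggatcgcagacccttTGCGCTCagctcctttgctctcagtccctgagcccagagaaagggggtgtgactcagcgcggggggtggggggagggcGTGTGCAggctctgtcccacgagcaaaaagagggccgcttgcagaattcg

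Both metallothionein genes were higher at 1 day and at 5 days. Mt1 in controls was at 307, 360.1, 365, 397 and 457 CPM and at 1 day at 507, 524, 557, 639 and 692 CPM. All 5 mice at 1 day exceeded every control (0.63 ± 0.12 SE, adjusted p = 7.3e-04). At 5 days the difference was 0.37 ± 0.13 (SE, adjusted p = 0.0328), with 3 of 5 mice above every control. It was lost when room temperature mouse 2, 3, 4 or 5 or 5 days mouse 2 or 5 was left out (adjusted p from 0.054 to 0.0877, log2 fold change 0.30 to 0.39) and with library size only (0.14, adjusted p = 0.421). Mt2 in controls was at 75.0, 86.6, 94.7, 105 and 129 CPM and at 5 days at 133, 154, 159, 205 and 238 CPM. All 5 mice at 5 days were above every control, a log2 fold change of 0.85 ± 0.16 (SE, adjusted p = 3.9e-04). At 1 day 4 of 5 were above every control (0.59 ± 0.14 SE, adjusted p = 0.00371). The 1-day call of Mt2 was lost with library size only (0.38, adjusted p = 0.0569) and with all 7 groups in a single fit (0.59, adjusted p = 0.0722). At 6 hours neither gene passed, at 0.17 (adjusted p = 0.32) for Mt1 and 0.26 (adjusted p = 0.306) for Mt2. At 2 days, leaving out room temperature mouse 1 or 2 days mouse 3 brought Mt1 past the threshold (0.40 to 0.43, adjusted p from 0.0275 to 0.047), and leaving out 2 days mouse 3 did so for Mt2 (0.48, adjusted p = 0.0343). Mt2 also passed at 3 days without 3 days mouse 2 (0.60, adjusted p = 0.0172). An exon of Gm45774 overlaps Mt2 on the opposite strand. The strand setting of the counting is not stated, and whether the overlap affected the count of Mt2 was not tested.

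Cold durations were also compared directly, without the controls. Between 6 hours and 1 day 3 of the 10 genes fell (Fkbp5, Tsc22d3 and Nr3c1) and 1 rose (Mt1), while 16.9% of all 10181 genes passed (9.19% higher, 7.75% lower), and the median of the 10 was -0.16 beside -0.0086. Tsc22d3 changed most, with -1.05 ± 0.13 (SE, adjusted p = 2.5e-05) and no overlap between its groups. Mt1 rose by 0.45 ± 0.13 (SE, adjusted p = 0.0271), a call lost when 6 hours mouse 1, 2, 3 or 4 or 1 day mouse 3 or 4 was left out (adjusted p from 0.0508 to 0.0811, log2 fold change 0.37 to 0.45). For Fkbp5 the change was -0.78 ± 0.25 (SE, adjusted p = 0.0384), lost when 6 hours mouse 1, 2 or 3 or 1 day mouse 2, 4 or 5 was left out (adjusted p from 0.058 to 0.119, log2 fold change -0.80 to -0.63) and with all 7 groups in a single fit (adjusted p = 0.0866). Nr3c1, at -0.29 ± 0.099 (SE, adjusted p = 0.0493), lost its call in 9 of 10 fits that left out a mouse, namely when 6 hours mouse 1, 2, 3 or 4 or 1 day mouse 1, 2, 3, 4 or 5 was left out (adjusted p from 0.0742 to 0.131, log2 fold change -0.31 to -0.23). The count of 4 called genes dropped to 1 when 6 hours mouse 1, 2 or 3 or 1 day mouse 4 was left out, and to 2 without 6 hours mouse 4 or 1 day mouse 2 or 5. Sgk1 did not pass (-0.26 ± 0.17 SE, adjusted p = 0.328), nor did Ddit4 (-0.71 ± 0.25 SE, adjusted p = 0.0553), though Ddit4 passed without 1 day mouse 3 (-0.95, adjusted p = 0.0136). Mt2 had 0.32 (adjusted p = 0.255) and passed without 6 hours mouse 5 (0.55, adjusted p = 0.0245).

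Between 6 hours and 5 days 7 of the 10 fell and 1 rose (Mt2), against a background of 35.8% of 10294 genes (19% higher, 16.9% lower), and the median of the 10 was -0.73 beside -0.0080. Largest among them were the falls of Fkbp5 (-1.58 ± 0.35 SE, adjusted p = 0.00122), Ddit4 (-1.51 ± 0.23 SE, adjusted p = 3.5e-05) and Tsc22d3 (-1.47 ± 0.13 SE, adjusted p = 1.9e-08), followed by Zbtb16 (-1.25 ± 0.21 SE, adjusted p = 8.9e-05) and Sgk1 (-0.98 ± 0.16 SE, adjusted p = 6.5e-05). Klf9 (-0.48 ± 0.12 SE, adjusted p = 0.00283) and Nr3c1 (-0.45 ± 0.11 SE, adjusted p = 0.00281) fell by less. In Fkbp5, Ddit4, Tsc22d3, Zbtb16, Sgk1, Klf9 and Nr3c1 every 5-day mouse lay below every 6-hour mouse, as was so for 11.6% of all genes tested. Mt2 rose by 0.60 ± 0.19 (SE, adjusted p = 0.0199), lost when 6 hours mouse 2 or 4 or 5 days mouse 5 was left out (adjusted p from 0.057 to 0.0653, log2 fold change 0.45 to 0.54), with DESeq2 (adjusted p = 0.0844) and with all 7 groups in a single fit (adjusted p = 0.0754). Hsd11b1 (0.32 ± 0.20 SE, adjusted p = 0.238) and Mt1 (0.20 ± 0.14 SE, adjusted p = 0.269) did not pass. Circadian genes moved over the same interval: Per1, itself a receptor target, measured 15.2 ± 3.86 CPM in controls, 32.2 ± 4.25 at 6 hours and 7.50 ± 3.395 at 5 days (SD, n = 5), and Per2 measured 22.9 ± 4.43, 55.6 ± 8.82 and 8.45 ± 2.15. Their part in the changes of the 10 genes was not tested.

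To see which of the 10 genes varied together between mice of the same duration, each duration's mean was subtracted from log2 CPM and all 45 pairs were correlated over the 35 mice, with 100000 permutations of mice within durations (two-sided). Mt1 and Mt2 had Pearson's r = 0.769 (permutation p = 2.0e-05, adjusted p = 9.0e-04) and Spearman's rho = 0.718 (permutation p = 3.0e-05, adjusted p = 0.00135). With the 2 mice left out whose Mt1 value was most extreme after that subtraction, r was 0.708. Zbtb16 and Klf9 had r = 0.641 (permutation p = 8.4e-04, adjusted p = 0.0189). Their rank correlation was rho = 0.553 and did not pass (permutation p = 0.00407, adjusted p = 0.0916). With the 2 mice left out whose Zbtb16 value was most extreme after the subtraction, r was 0.565. For this pair r was 0.783 over the 20 mice at 2 to 5 days and 0.238 over the 15 others, a split made after the values were seen. At 2 days the 2 mice lowest in Zbtb16 had 34.6% and 38.0% mitochondrial reads, and the other mice 41.8% to 43.4%. At 5 days the mouse highest in Zbtb16 had 38.9%, within a range of 33.6% to 44.6%. Whether library composition had a part in this correlation was not tested. The remaining 43 pairs did not pass. Sgk1 was closest to Ddit4 (r = 0.438, permutation adjusted p = 0.192), a pair that passed with library size only (r = 0.490, permutation adjusted p = 0.0392). Sgk1 with Fkbp5 gave -0.143 (permutation adjusted p = 0.598) and with Tsc22d3 -0.0735 (permutation adjusted p = 0.83).

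**Figure D3:**
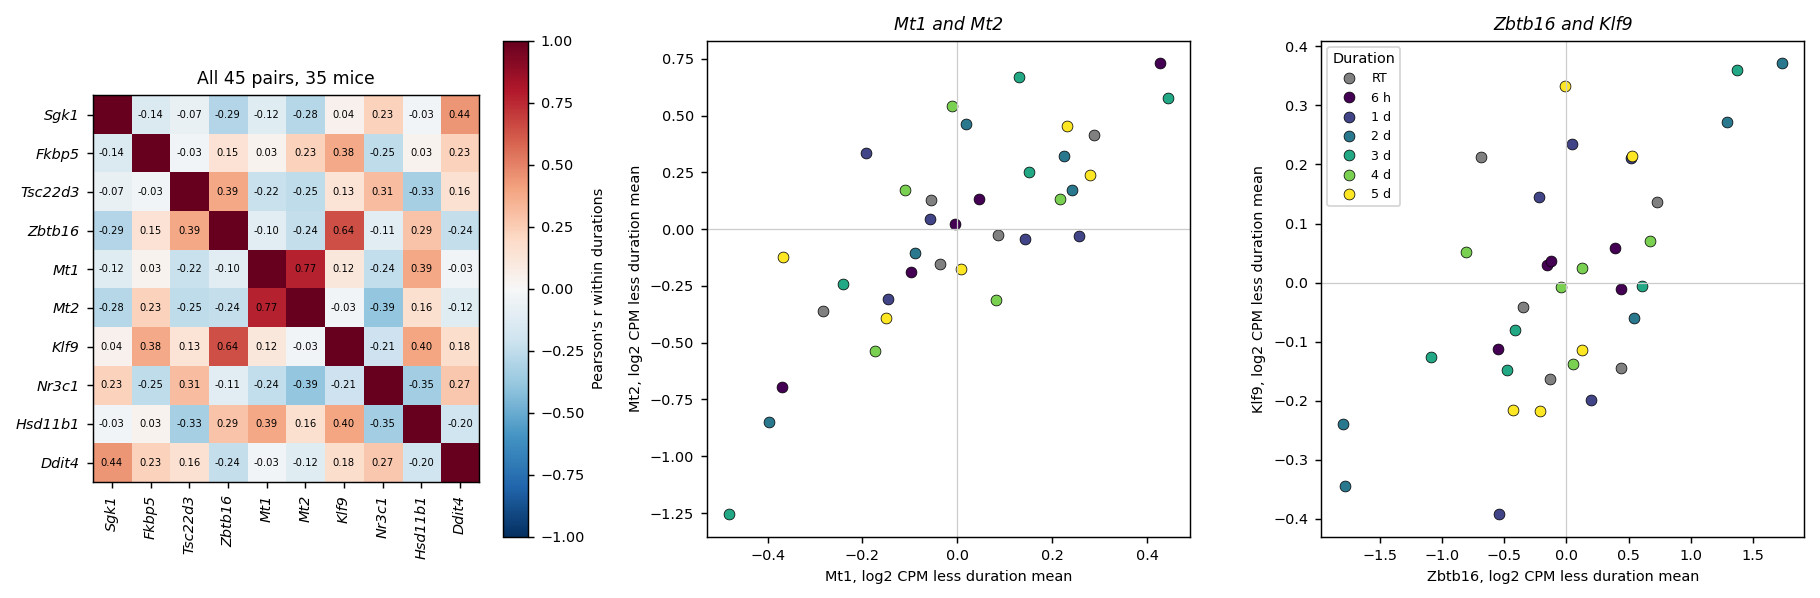
Left, Pearson's r of every pair of the 10 genes over 35 mice after subtracting each duration's mean log2 CPM (colour from -1 to 1). Middle and right, the same differences from the duration mean for Mt1 against Mt2 (r = 0.769) and Zbtb16 against Klf9 (r = 0.641), with 1 point per mouse coloured by duration.

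Over all 35 mice, durations included, the genes whose log2 CPM ran most like each member were found among 8885 others, with r as a description only, since the mice share durations. For Sgk1 they were Noct (0.910), Ackr3 (0.896), Pdgfb (0.895), Gk (0.894) and Slc12a2 (0.879). Noct, a circadian gene, led these, and for Fkbp5 the closest was the clock gene Per1, in Per1 (0.743), Paf1 (0.741) and Pld1 (0.736). Tsc22d3 ran most like Ddx6 (0.868), Slc7a8 (0.845) and Per2 (0.837). For Ddit4 they were Per1 (0.794), Errfi1 (0.757) and Adgrf5 (0.740), and for Klf9 Gm10032 (0.862), Klf15 (0.802) and Trim24 (0.785). Zbtb16 ran most like Klf9 (0.708), Klf15 (0.650) and Gm11737 (0.630). Per1, Errfi1 and Klf15 also belong to the wider list of glucocorticoid-responsive genes described below. The metallothioneins headed each other's lists, with Mt2 (0.762), Magt1 (0.659) and Cmc2 (0.655) for Mt1 and Mt1 (0.762), Atp6v1a (0.626) and Hpdl (0.610) for Mt2. Nr3c1 was near to Clk1 (0.742) and Nsd1 (0.737), and Hsd11b1 to Miga2 (0.756), Aplp2 (0.753) and Clpb (0.738).

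A wider list of 22 genes known to answer to glucocorticoids was chosen, as were the lists below, with earlier results of these data at hand. Of the 20 tested, more rose than fell at 6 hours and more fell than rose at 5 days. Over all genes 21.5% were higher and 21% lower at 6 hours, and 20.2% and 18.6% at 5 days. At the durations between, 16.4% to 19.4% of all genes were higher and 14.7% to 18.6% lower. At 6 hours 8 higher and 3 lower passed the test, with a median log2 fold change of 0.46. At 1 day there were 3 higher and 4 lower (median 0.051), at 2 days 5 higher and 4 lower (-0.095) and at 3 days 5 higher and 7 lower (-0.064). At 4 days there were 5 higher and 8 lower (-0.38) and at 5 days 4 higher and 10 lower (-0.48). Between 6 hours and 1 day the count was 1 higher and 7 lower (-0.30), beside 9.19% and 7.75% of all genes. Between 6 hours and 5 days it was 2 higher and 12 lower (-0.85), beside 19% and 16.9%. With library size only, 6 hours had 8 higher and 4 lower, 5 days had 3 and 12, and the median at 1 day turned to -0.17. Cdkn1a, the cell cycle inhibitor p21, was at 38.2 ± 12.1 CPM in controls and 511 ± 81.6 CPM at 6 hours (SD, n = 5), a log2 fold change of 3.72 ± 0.18 (SE, adjusted p = 9.8e-11). Irs2, an adaptor of the insulin receptor, rose by 2.15 ± 0.28 (SE, adjusted p = 1.0e-05) at 6 hours and had 0.36 (adjusted p = 0.376) at 1 day. Dusp1, a phosphatase of MAP kinases, rose by 1.91 ± 0.20 (SE, adjusted p = 7.8e-07) at 6 hours and was still higher at 5 days (1.60, adjusted p = 1.8e-05). Rgs2, a brake on G protein signalling, was lower at 4 days (-2.10 ± 0.40 SE, adjusted p = 5.9e-04), where its control mice spread widely (111 to 532 CPM).

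Most genes of the receptor's folding machinery were called higher. Of 12 chaperones and co-chaperones, all tested, 10 were higher at 6 hours, 11 at 1 day, 9 at 2 days, 9 at 3 days, 10 at 4 days and 10 at 5 days, and none was lower in these 6 comparisons, beside 16.4% to 21.5% of all genes higher. Median log2 fold changes ranged from 0.77 at 3 days to 1.14 at 6 hours, and with library size only between 7 and 9 were higher. Heat shock proteins led at 6 hours: Hsph1 with 3.14 ± 0.18 (SE, adjusted p = 5.5e-10), Hspa8 with 2.64 ± 0.12 (SE, adjusted p = 5.1e-11), Hsp90aa1 with 2.20 ± 0.17 (SE, adjusted p = 2.8e-08) and Dnaja1 with 1.56 ± 0.14 (SE, adjusted p = 1.5e-07). These chaperones fold many other proteins besides the receptor. From 6 hours to 1 day 4 fell and 1 rose, beside 7.75% of all genes lower and 9.19% higher. From 6 hours to 5 days 8 fell and 1 rose, beside 16.9% and 19%.

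**Figure D4:**
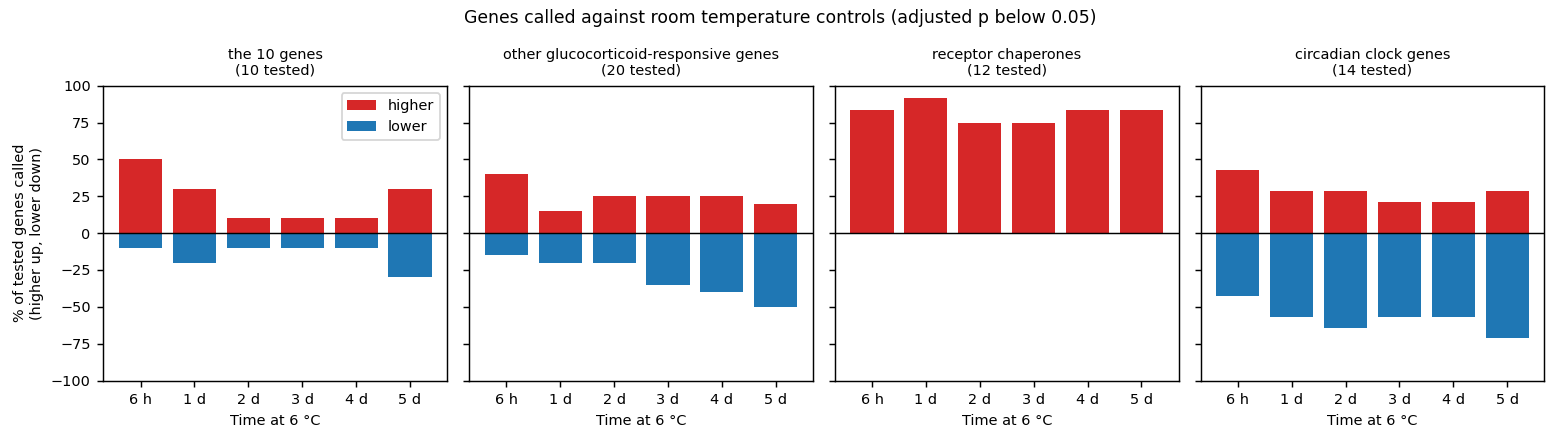
Share of tested genes (vertical axis, percent) called higher (red, upward) or lower (blue, downward) than the 5 controls at each duration, for the 10 genes, the wider glucocorticoid list, receptor chaperones and circadian clock genes. The chaperone bars point up only, 10 of 12 at 6 hours, while the wider list went from 8 higher and 3 lower at 6 hours to 4 and 10 at 5 days.

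Coregulators that the receptor recruits were called in both directions. Over all genes 16.4% to 21.5% were higher and 14.7% to 21% lower against controls. Of 11 tested, those higher and lower than controls numbered 4 and 2 at 6 hours, 4 and 3 at 1 day, 2 and 2 at 2 days, 2 and 3 at 3 days, 2 and 4 at 4 days and 2 and 5 at 5 days. Ncoa1 and Med1, coactivator and mediator subunit, rose at 6 hours (1.12 ± 0.13 SE, adjusted p = 2.6e-06, and 0.91 ± 0.093 SE, adjusted p = 5.6e-07). Nrip1, a corepressor, was lower at 2 days (-0.90 ± 0.19 SE, adjusted p = 0.00198) and Ncoa3 at 5 days (-0.77 ± 0.19 SE, adjusted p = 0.00436). A list of steroid handling genes other than Hsd11b1 also held Nr3c2, the mineralocorticoid receptor gene, at 10 to 17 reads per library in controls. Of its 6 genes tested, those higher and lower numbered 0 and 2 at 6 hours, 1 and 1 at 1 day and 0 and 1 at 2 days. At 3, 4 and 5 days they numbered 0 and 1, 0 and 3 and 0 and 3. H6pd, which makes the cofactor for the enzyme of Hsd11b1, was lower at 6 hours (-0.48 ± 0.11 SE, adjusted p = 0.00255). Por, an electron donor of steroid enzymes, was lower at 5 days (-0.31 ± 0.10 SE, adjusted p = 0.0252), and Abcb1b, an efflux pump that accepts steroids, at 4 days (-1.06 ± 0.26 SE, adjusted p = 0.0041).

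Partners of the single targets were counted in the same way, beside 16.4% to 21.5% of all genes higher and 14.7% to 21% lower. In the list of 14 genes around SGK1, those higher and lower numbered 6 and 5 at 6 hours, 5 and 1 at 1 day, 3 and 1 at 2 days, 4 and 1 at 3 days, 5 and 2 at 4 days and 3 and 4 at 5 days. Sgk2, a kinase of the same family, rose by 2.41 ± 0.27 (SE, adjusted p = 3.9e-06) at 1 day, from 11.1 ± 4.03 to 59.7 ± 22.1 CPM (SD, n = 5). Pdpk1, which phosphorylates SGK kinases, rose at 6 hours (1.07 ± 0.11 SE, adjusted p = 5.2e-07), Slc9a3r2, a scaffold that binds SGK1, at 1 day (0.81 ± 0.14 SE, adjusted p = 3.3e-04), and Mtor at 5 days (1.44 ± 0.13 SE, adjusted p = 1.3e-07). Another list held zinc transporters, other metallothioneins, Mtf1 and Mtf2, with 13 or 14 genes tested. It had 4 and 0 at 6 hours, 4 and 0 at 1 day and 3 and 0 at 2 days. At 3, 4 and 5 days it had 1 and 0, 2 and 0 and 1 and 1. Slc39a14, a zinc and iron importer, rose at 6 hours (2.17 ± 0.19 SE, adjusted p = 9.2e-08), as did Mtf1, the factor that binds metal response elements (1.00 ± 0.14 SE, adjusted p = 2.5e-05). Slc39a13 was higher at 4 days (0.51 ± 0.14 SE, adjusted p = 0.00922) and Slc39a10 lower at 5 days (-0.70 ± 0.26 SE, adjusted p = 0.0365). Other inhibitors of mTORC1, 9 or 10 tested, had 1 and 3 at 6 hours, 1 and 2 at 1 day, 1 and 2 at 2 days, 1 and 1 at 3 days, 1 and 2 at 4 days and 1 and 1 at 5 days. Deptor, a component of the complex that restrains it, was higher at 5 days (1.44 ± 0.15 SE, adjusted p = 8.4e-07). Sesn2 rose (0.92 ± 0.28 SE, adjusted p = 0.0137) and Sesn3 fell (-0.96 ± 0.20 SE, adjusted p = 0.00109) at 6 hours, and Txnip was lower at 3 days (-0.77 ± 0.19 SE, adjusted p = 0.00497).

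Relatives of Klf9 and Tsc22d3 were counted last, again beside 16.4% to 21.5% of all genes higher and 14.7% to 21% lower. Of 10 other KLF genes tested, 3 and 1 at 6 hours, 1 and 0 at 1 day, 0 and 0 at 2 days, 0 and 1 at 3 days, 0 and 1 at 4 days and 0 and 4 at 5 days were higher and lower. Klf4 (0.87 ± 0.26 SE, adjusted p = 0.0121) and Klf7 (0.70 ± 0.099 SE, adjusted p = 2.2e-05) rose at 6 hours, Klf10 was lower at 3 days (-0.73 ± 0.27 SE, adjusted p = 0.0464) and Klf2 at 5 days (-0.67 ± 0.26 SE, adjusted p = 0.0476). The 3 other TSC22 genes had 1 and 1 at 6 hours, 1 and 1 at 1 day, 1 and 0 at 2 days, 1 and 0 at 3 days, 1 and 1 at 4 days and 1 and 1 at 5 days. Tsc22d1 rose (1.51 ± 0.11 SE, adjusted p = 7.3e-08) and Tsc22d4 fell (-0.55 ± 0.13 SE, adjusted p = 0.00289) at 1 day, when Tsc22d3 also fell, and Tsc22d2 was lower at 4 days (-0.32 ± 0.12 SE, adjusted p = 0.0488). Median log2 fold changes against controls over the 6 durations ran from -0.12 to 0.15 for coregulators, -0.34 to -0.0093 for steroid genes, -0.14 to 0.19 for the SGK1 list, 0.031 to 0.21 for zinc genes, -0.40 to -0.033 for mTORC1 inhibitors, -0.25 to 0.17 for KLF genes, -0.32 to 0.091 for TSC22 genes and -1.33 to -0.16 for clock genes, beside -0.027 to -0.0073 over all genes. With library size only, the counts of higher and lower genes at 6 hours and at 5 days were 2 and 5 and 1 and 5 for coregulators, 0 and 3 and 0 and 4 for steroid genes, 4 and 7 and 3 and 7 for the SGK1 list, 2 and 0 and 1 and 2 for zinc genes, 1 and 4 and 1 and 2 for mTORC1 inhibitors, 2 and 2 and 0 and 5 for KLF genes and 1 and 1 and 1 and 2 for TSC22 genes.

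Clock genes and cell type markers also differed from controls at these durations, where 16.4% to 21.5% of all genes were higher and 14.7% to 21% lower. Of 14 clock genes tested, those higher and lower numbered 6 and 6 at 6 hours, 4 and 8 at 1 day, 4 and 9 at 2 days, 3 and 8 at 3 days, 3 and 8 at 4 days and 4 and 10 at 5 days. Arntl, an activator of the clock, rose by 3.53 ± 0.22 (SE, adjusted p = 1.6e-09) at 6 hours, and Nr1d1, its repressor, fell (-2.90 ± 0.20 SE, adjusted p = 5.5e-09). Dbp was lower at 1 day (-3.46 ± 0.22 SE, adjusted p = 1.5e-08) and Per3 at 5 days (-2.98 ± 0.19 SE, adjusted p = 3.9e-09). Between durations the clock genes had 1 and 7 from 6 hours to 1 day, beside 9.19% and 7.75% of all genes. They had 1 and 8 from 6 hours to 5 days, beside 19% and 16.9%. Summed endothelial markers had medians of 265 CPM in controls, 464 at 6 hours and 509.8 at 1 day, with 2 of 6 markers higher and 1 lower at 6 hours and 4 of 5 higher at 1 day. Macrophage markers summed to 82.0 to 194 CPM in controls and 106 to 288 CPM at 4 days, where 4 of 8 were higher. Skeletal muscle markers varied between mice of each group, from 74.6 to 997 CPM in controls to 158 to 266 CPM at 5 days, where 5 of 9 were lower. Erythroid markers summed to 1826 to 2344 CPM in controls and 2701 to 5005 CPM at 5 days (3 of 5 higher). Higher at 6 hours were also 3 of 5, and at 1 day 4 of 5. Stromal markers ranged from 511 to 617 CPM in controls to 378 to 451 CPM at 1 day (4 of 7 lower, 1 higher). Smooth muscle markers summed to 24.9 to 38.9 CPM in controls and 46.6 to 52.5 CPM at 6 hours. At 6 hours, 1 day and 2 days 2 of 3 were higher. At 5 days they summed to 17.1 to 23.9 CPM (2 of 3 lower), and all 3 fell from 6 hours to 5 days. Schwann and white adipocyte markers summed to at most 34.3 and 103 CPM. What part the clock and these cell types had in the values of the 10 genes was not tested.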

How the data were processed

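Bulk RNA was measured in iBAT of 35 mice, with 5 mice in each of 7 groups and 1 library per mouse. Per the labels and the study's methods, library preparation used the QuantSeq 3' FWD kit, reads were aligned with STAR 2.6.1d to GRCm38, and HTSeq 0.11.2 counted them on genes. The authors deposited these counts as whole numbers without normalization. The strand setting is not given in the sources used here. All 35 columns were assigned to mice through duration and number, and 0 per-sample columns were left unused. Symbols were found for 55154 of 55421 identifiers.

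Each comparison was fitted apart in R 4.3.3 with edgeR 4.0.16 (filterByExpr, TMM, quasi-likelihood F test, Benjamini-Hochberg adjustment over all genes tested, threshold 0.05). The SE is the log2 fold change divided by the square root of F. CPM used TMM factors over 12077 genes, and log2 CPM a prior count of 2. Precision is limited by depth: at 0.151 to 0.289 CPM per read, low genes such as Fkbp5 rest on few reads. Correlations were tested by 100000 permutations of mice within durations (Python 3.11.15, numpy 2.4.6). On simulated counts for 6 hours against room temperature, edgeR recovered 194 of 197 changed genes with 7 false calls among 10412 genes. DESeq2 1.42.0 recovered 195 with 11. The simulation changed 200 genes, while 4505 of 10593 were called in the data at 6 hours. Its results were not split by size of change. They therefore do not show how well small changes were recovered, nor how many false calls the data hold. Simulated correlations gave 2 of 2 linked pairs and 0 of the other pairs.

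The 10 genes and the lists were chosen with earlier results of these data known. All 10 are named. Per1 and Per2 were added after their values were seen. Nr3c2 and Mtf2 are named only to describe their lists. From each further list, at most 4 genes are named, those with the largest absolute log2 fold change against room temperature among called genes with a mean of at least 20 counts. Cell type lists are given as sums and counts of calls. As genes of like pattern, the 5 with the highest r with Sgk1 and the 3 with the highest r with each other gene are named. For Nr3c1, 1 of these is not reported here. Alternatives were DESeq2, RLE factors, scaling by library size only, no filter, all 7 groups in a single fit, a block for replicate number, and omission of each mouse in turn. Library size only for the further lists was added after the data were seen. Mice of 1 group were not duplicates, since the chi-square per degree of freedom between their counts was 5.00 to 26.5. Promoter sequence came from RefSeq, GRCm38.p6. Single-cell data of the study were not analysed here.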

Additional observations from a re-analysis of the deposited data

Results flagged for a closer look

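Within groups of 5 mice, 3 of the 70 groups examined held a mouse that stood far from the others by Dixon's criterion, which chance alone meets in about 1 of 20 groups. Tsc22d3 in 5-day mouse 3 was at 15.5 CPM, with the nearest mouse at 17.4 CPM. Klf9 in 3-day mouse 5 was at 471 CPM, with the nearest at 365 CPM. Ddit4 in 6-hour mouse 2 was at 66.7 CPM, with the nearest at 41.0 CPM.

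Several genes differed between cold durations when these were compared directly with edgeR. From 6 hours to 1 day the log2 fold change was -0.78 for Fkbp5, -1.05 for Tsc22d3, 0.45 for Mt1 and -0.29 for Nr3c1. From 6 hours to 5 days it was -0.98 for Sgk1, -1.58 for Fkbp5, -1.47 for Tsc22d3, -1.25 for Zbtb16 and -0.48 for Klf9. Over the same interval it was -0.45 for Nr3c1, -1.51 for Ddit4 and 0.60 for Mt2.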

How the results depend on the processing

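Fkbp5 rested on 3 to 79 reads per library, which limits its precision. Over the 10 genes, 8 comparisons and all alternatives, 1137 values kept direction and call, 58 lost a call, 43 gained one and 42 changed sign, none of the last being a called value. Library size only lowered the median over all genes to between -0.25 and -0.15 against controls, from -0.027 to -0.0073 with TMM. Higher and lower genes then numbered 1140 and 3218 at 1 day, 931 and 2776 at 2 days, 1339 and 2430 at 3 days, 1440 and 2670 at 4 days and 1194 and 3347 at 5 days, in place of 2014 and 1901, 1748 and 1565, 1982 and 1674, 2140 and 2056 and 2167 and 1998. Of the 10 genes, 4 passed at 2 days and 5 at 4 days with library size only, and 4 at 3 days without a filter on counts, in place of 2 each. Correlated pairs numbered 5 with library size only and 1 with Spearman's rho in place of 2. Library size only added Sgk1 with Ddit4 (r = 0.490, permutation adjusted p = 0.0392) and Fkbp5 with Klf9 (r = 0.614, permutation adjusted p = 0.0272). It also added Nr3c1 with Hsd11b1 (r = -0.551, permutation adjusted p = 0.0272). The cause of these shifts was not tested.

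Sign changed with library size only for Mt1 at 6 hours (-0.018), Fkbp5 at 1 day (-0.18), Ddit4 at 1 day (-0.12), Klf9 at 2 days (-0.058), Ddit4 at 4 days (-0.067) and Hsd11b1 between 6 hours and 1 day (-0.0075), and with DESeq2 for Zbtb16 at 3 days (0.0083). Leaving out each mouse gave -0.19 to 0.20 for Fkbp5 and -0.12 to 0.30 for Ddit4 at 1 day, -0.049 to 0.70 for Zbtb16 at 2 days, and -0.13 to 0.028 for Tsc22d3, -0.48 to 0.21 for Zbtb16, -0.10 to 0.049 for Klf9 and -0.069 to 0.033 for Nr3c1 at 3 days. It gave -0.13 to 0.22 for Ddit4 at 4 days, and -0.033 to 0.24 for Zbtb16, -0.13 to 0.020 for Klf9 and -0.17 to 0.23 for Hsd11b1 between 6 hours and 1 day. Called genes among the 10 then ranged from 6 to 7 at 6 hours, 4 to 5 at 1 day, 2 to 4 at 2 days (4 without 2 days mouse 3), 2 to 3 at 3 days, 2 to 4 at 4 days (4 without 4 days mouse 3), 4 to 6 at 5 days, 1 to 5 from 6 hours to 1 day and 7 to 8 from 6 hours to 5 days.

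Replicate numbers did not pair mice: deviations of same-numbered mice from their group means correlated between -0.239 and 0.144. With the replicate block, Mt1 at 5 days (0.36, adjusted p = 0.0551) and Nr3c1 from 6 hours to 1 day (-0.29, adjusted p = 0.0893) lost their calls, Ddit4 at 3 days (0.47) and from 6 hours to 1 day (-0.77) and Hsd11b1 at 5 days (-0.51) gained one, and Hsd11b1 from 6 hours to 1 day was -0.047. Nr3c1 from 6 hours to 1 day also lost its call with RLE size factors (adjusted p = 0.0506).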

Other observations

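Genes of the wider glucocorticoid list were looked at singly after their values had been seen. Those called higher at 6 hours were Cdkn1a, Dusp1, Errfi1, Foxo1, Irs2, Nfkbia, Per1 and Usp2, and those called lower were Angptl4, Foxo3 and Pik3r1. At 5 days Anxa1, Cdkn1a, Dusp1 and Pdk4 were called higher, and Angptl4, Cdkn1c, Foxo1, Klf15, Nfkbia, Per1, Pik3r1, Rgs2, Sult1a1 and Usp2 lower. 4 genes, Foxo1, Nfkbia, Per1 and Usp2, were thus called higher at 6 hours and lower at 5 days against the same controls. Usp2, a deubiquitinase with a daily rhythm, had 1.30 ± 0.15 (SE, adjusted p = 2.2e-06) and -0.65 ± 0.16 (SE, adjusted p = 0.00327) at these times, and Foxo1, a transcription factor restrained by insulin, had 0.82 ± 0.14 (SE, adjusted p = 1.1e-04) and -0.80 ± 0.13 (SE, adjusted p = 8.3e-05). Pik3r1, a regulatory subunit of the insulin-stimulated lipid kinase, was lower at every duration, from 187 ± 27.6 CPM in controls to 53.3 ± 6.08 CPM at 1 day (SD, n = 5; log2 fold change -1.81 ± 0.12 SE, adjusted p = 2.0e-08). Angptl4, an inhibitor of lipoprotein lipase, was also lower at every duration, at 99.2 ± 25.4 CPM in controls and 29.7 ± 1.83 CPM at 6 hours (-1.76 ± 0.14 SE, adjusted p = 4.2e-08). Pdk4, a brake on pyruvate oxidation, had 1.42 ± 0.22 (SE, adjusted p = 1.7e-04) at 2 days and 1.32 ± 0.23 (SE, adjusted p = 1.7e-04) at 5 days.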
